A study of Mus musculus with 18 samples.

Results

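The genes described here build and run the lysosome and autophagy in mouse cone photoreceptors. They were chosen by symbol. Symbols starting with Atp6v0 or Atp6v1, and the genes Atp6ap1 and Atp6ap2, mostly name parts of the vacuolar proton pump. Also taken were every cathepsin (Cts and 1 letter), every numbered Atg gene, and 18 named lysosomal membrane, autophagy and mitophagy genes. Pseudogenes were left out. The rule found 79 of the 54532 genes listed, and it used no measured value. Cones carrying a nuclear green fluorescent protein were sorted from wild-type retinas, 1000 cells per retina and 1 library per retina, and their RNA was sequenced.

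There were 4 groups, and every retina had received AAV8-SynP136-H2BGFP, a cone-labeling virus, at P0 by subretinal injection. BALB/c retinas, from an albino strain, were collected at P21: 6 control retinas had the labeling virus alone, and 6 also had AAV8-RedO-Txnip, which drives Txnip, an alpha-arrestin that lowers glucose uptake, from a red opsin promoter. C57BL/6J retinas, from a pigmented strain, were collected at P35, with 3 control and 3 Txnip retinas. The C57BL/6J mice were bred in house and carry the null Nnt allele of that strain. The red opsin promoter is also weakly active in some rods, but the sort gated on the cone label. Strain, age and any processing batch go together, so these cannot be told apart in any difference between BALB/c and C57BL/6J. The labels do not say which retinas came from 1 mouse, so p-values measure only the spread between these libraries.

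The lysosome is an acidic compartment that digests proteins, lipids and worn organelles. Its acidity comes from the V-ATPase, in which the cytosolic V1 sector hydrolyzes ATP and the membrane V0 sector carries the protons across. Autophagy brings cargo to it: the ULK1 and Beclin 1 complexes start a membrane, lipid transfer proteins enlarge it, a conjugation system attaches ATG8 proteins such as LC3 and GABARAP to it, and receptors such as p62 load it. Photoreceptors have high energy use and many mitochondria, and they use the same proton pump to fill synaptic vesicles. The transcription factors TFEB and TFE3 switch on many lysosomal genes through E-box elements.

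Library totals ran from 647712 to 5172156 counted read pairs, and the members took 0.685% to 1.22% of them. The virus was seen in the libraries as labeled: Txnip stood at 0 to 1.48 CPM, counts scaled to the library total, in the 9 control libraries and at 821 to 1969 in the 9 Txnip libraries. The 12 cone markers took 3.83% to 10.1% of counts, against 0.967% to 2.40% for the 9 rod markers. Lists that mark cells rich in lysosomes were near 0: 12 microglial genes summed to 0.00071% to 0.00305% of counts, and 9 genes of the pigment epithelium to 0.00236% to 0.00575%. The share on the ribosomal RNA locus varied most, from 3.27% to 27.5%. It was below 10% in BALB/c controls 2, 4 and 5 and in C57BL/6J control 1, control 3 and Txnip 1, and above 20% in C57BL/6J control 2, Txnip 2 and Txnip 3. In bulk RNA, fewer cells of a type and less RNA per cell cannot be told apart.

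Of the 79 members, 47 had a mean of at least 100 counts, and 61 passed the filter on low counts in the fit of all 18 libraries. Levels between genes are given as CPM per kilobase of exonic length, an approximate scale because the length sums all exons of a gene. The highest level in BALB/c control cones belonged to Atp6v0e2, a small V0 subunit, at 435 ± 31.9 CPM per kilobase (mean ± SD, n = 6). Ctsd, the lysosomal aspartyl protease, followed at 289 ± 24.5, and Gabarapl1, an ATG8 protein, was at 286 ± 16.7, within the spread of Ctsd. In C57BL/6J control cones the same 3 genes also led, at 360 ± 24.5, 305 ± 27.6 and 220 ± 42.9 (SD, n = 3).

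**Figure D1:**
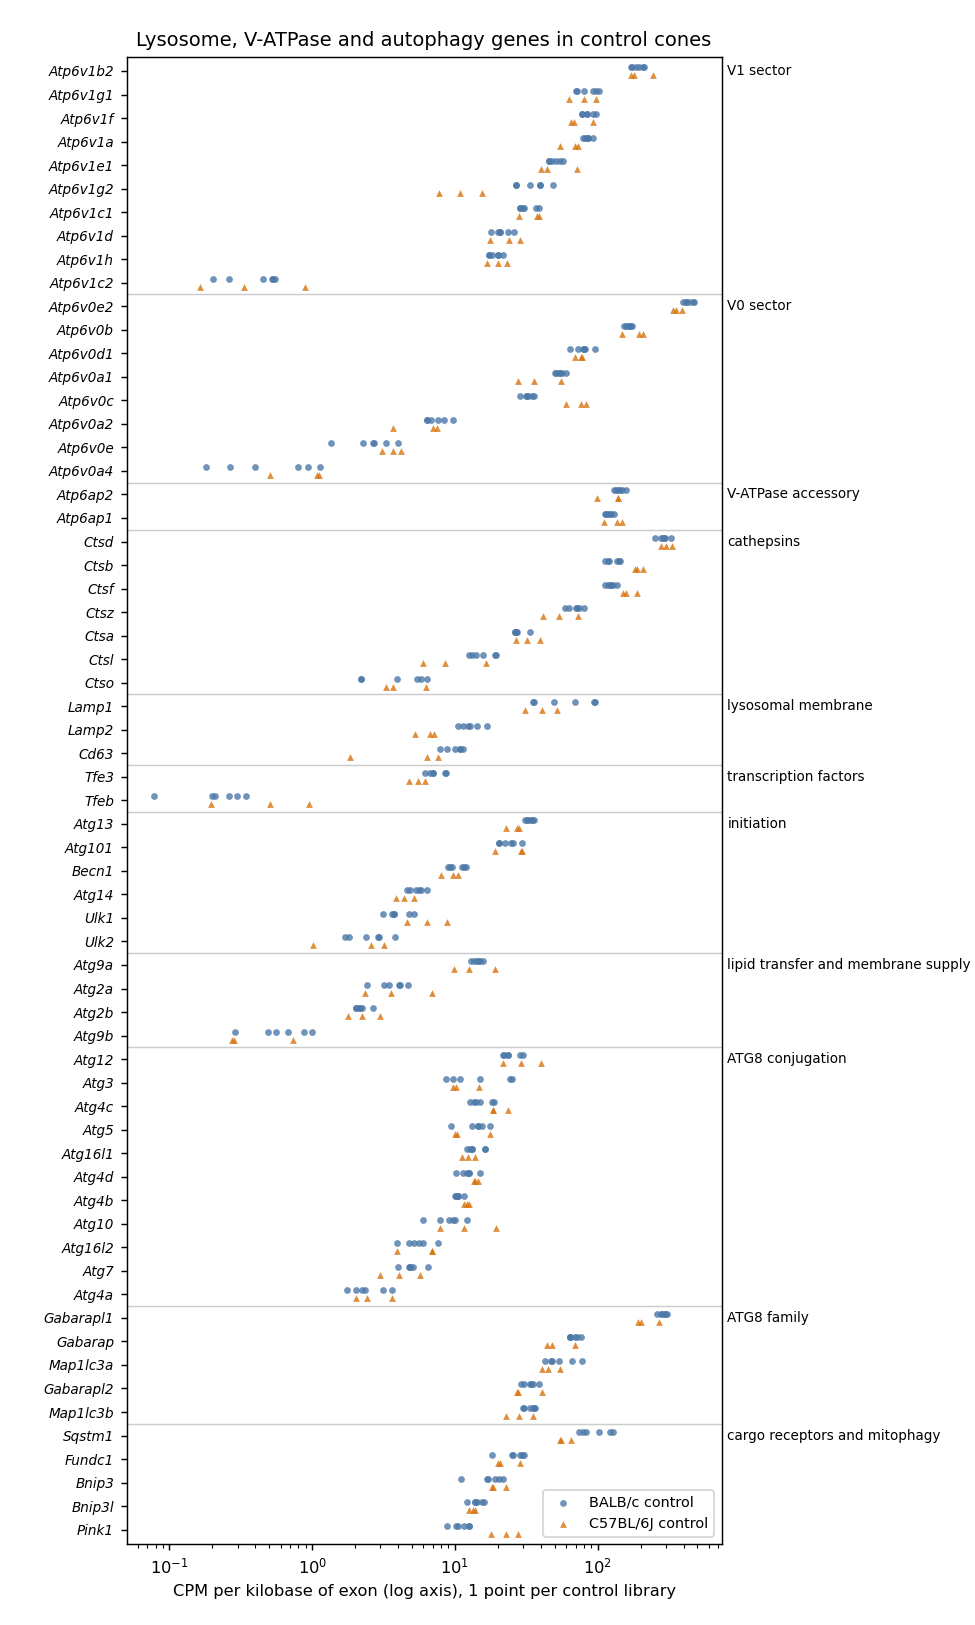
CPM per kilobase of exonic length (log axis) of 63 members in the 9 control libraries, grouped by role, with 1 circle per BALB/c and 1 triangle per C57BL/6J library. The 16 members with a count of 0 in some control library are not drawn, and Atp6v0e2, Ctsd and Gabarapl1 have the highest levels.

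The rest of the proton pump was present at graded levels. In BALB/c controls, Atp6v1b2, the B subunit of the ATP-hydrolyzing ring, was at 190 ± 16.5 CPM per kilobase, and its partner Atp6v1a, the catalytic A subunit, was at 85.0 ± 4.9. The proteolipid gene Atp6v0b was at 164 ± 7.87, and Atp6v0c, which encodes the main proteolipid of the rotating ring, at 32.4 ± 2.51. The accessory subunits Atp6ap2, also known as the prorenin receptor, and Atp6ap1 stood at 142 ± 10.4 and 121 ± 6.33, beyond each other's SD. The V0 to V1 neck subunit Atp6v0d1 was at 78.8 ± 10.6, and the peripheral stalk gene Atp6v1e1 at 50.3 ± 4.8.

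Where the pump has alternative subunits, the cones held mostly 1 form. Taking each subunit's summed CPM per kilobase as the whole in BALB/c controls, Atp6v1b2 made up 99.97% of subunit B, Atp6v1c1 98.7% of subunit C and Atp6v0d1 99.9% of subunit d. All of the subunit E signal was Atp6v1e1, since Atp6v1e2, the testis form, had no count in any library. Subunit e was 99.4% Atp6v0e2, the form known from brain, against 2.71 ± 0.900 CPM per kilobase for the widely expressed Atp6v0e. The kidney forms Atp6v1b1 and Atp6v1g3 had totals of 14 and 5 counts over all 18 libraries.

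Subunits G and a were mixed. Atp6v1g2, the neuronal G subunit, made up 22.4% to 37.8% of subunit G in BALB/c controls and 24.7% to 37.1% in BALB/c Txnip libraries. In C57BL/6J its share was 10.1% to 16.1% in controls and 13.8% to 16.9% in Txnip libraries, so no C57BL/6J library reached the lowest BALB/c library. Nearly all of the rest was Atp6v1g1, the widely expressed form. Of subunit a, which anchors the stator in the membrane, Atp6v0a1 made up 57.7% ± 5.53 in BALB/c and 72.0% ± 10.4 in C57BL/6J controls, and the ranges overlapped (52.0% to 66.6% and 61.4% to 82.3%). Its own level was 54.3 ± 3.43 and 39.6 ± 13.9 CPM per kilobase, so the higher share went with a lower level. Tcirg1, the a3 form best known from osteoclasts and not a member by symbol, made up 33.6% ± 7.10 and 14.1% ± 4.70.

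**Figure D2:**
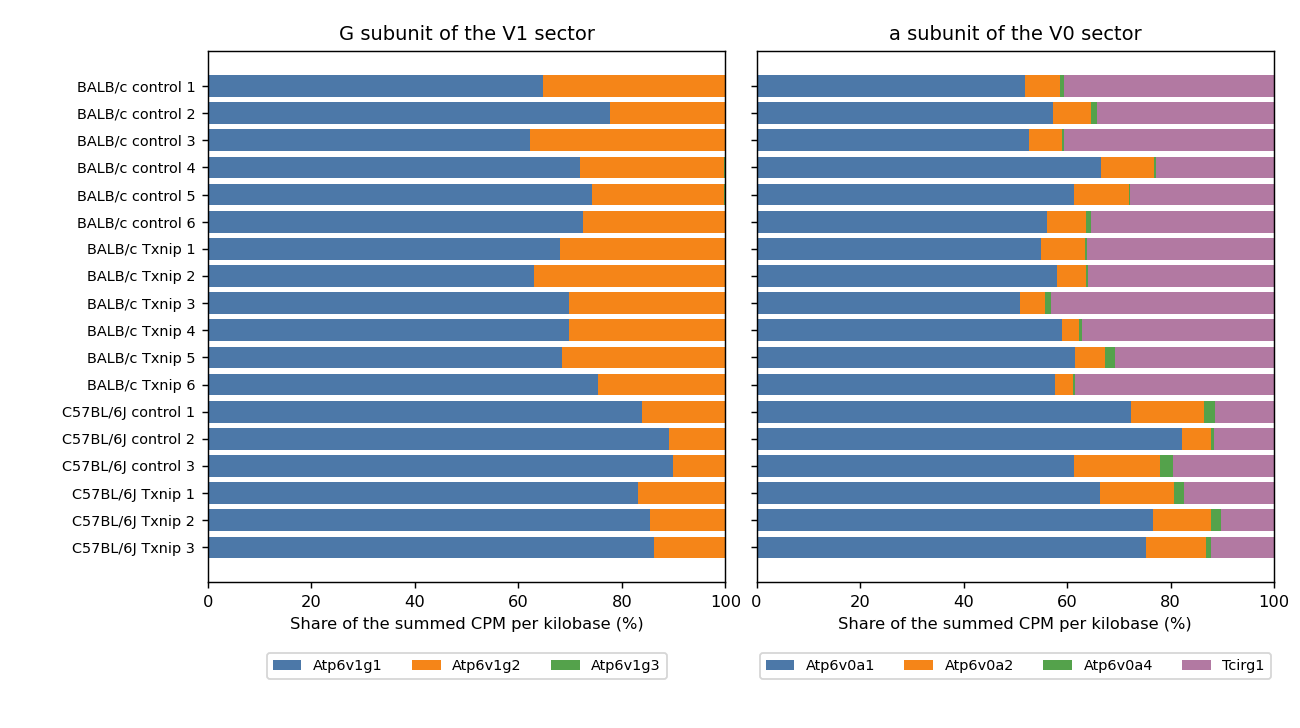
Share (%) of each gene in the summed CPM per kilobase of V-ATPase subunit G and of subunit a, with 1 stacked bar for each of the 18 libraries. The Atp6v1g2 share is 22.4% or more in every BALB/c library and 16.9% or less in every C57BL/6J library.

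Among the cathepsins, 8 of 18 were tested. Behind Ctsd came Ctsb and Ctsf, cysteine proteases, at 128 ± 13.3 and 123 ± 8.62 CPM per kilobase in BALB/c controls, which lay within each other's SD. Ctsz, a carboxypeptidase, was at 69.4 ± 7.63, and Ctsl, an endopeptidase, at 15.7 ± 2.95. Ctss, the cathepsin typical of microglia and other antigen-presenting cells, had 19 counts in total, spread over 7 libraries, and Ctsk, the osteoclast protease, had 109.

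Of the lysosomal membrane proteins, Lamp1 was at 63.4 ± 27.6 CPM per kilobase, with a wide spread, while Lamp2 and the tetraspanin Cd63 were at 12.999 ± 2.26 and 9.97 ± 1.39. Of the transcription factors, Tfe3 was at 7.35 ± 1.02 and Tfeb at 0.232 ± 0.0926, with 103 Tfeb counts over the 18 libraries. Tfeb did not pass the filter for BALB/c or for the fit of 4 groups, so no strain difference was fitted for it. At these low counts its mean log2 CPM in C57BL/6J minus BALB/c was 0.803 between controls and 1.48 between Txnip libraries. Exact two-sided permutation tests gave p = 0.143 and 0.0476, unadjusted, where the smallest possible value is 0.0119.

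In the autophagy machinery Gabarapl1 had the highest level. The other ATG8 genes in BALB/c controls were Gabarap at 68.0 ± 5.27, Map1lc3a at 55.8 ± 13.4, and Map1lc3b and Gabarapl2 both at 33.6 CPM per kilobase (SD 2.78 and 3.46). Sqstm1, which encodes the cargo receptor p62, was at 98.05 ± 23. The initiation genes were lower: Atg13, a scaffold of the ULK1 complex, was at 33.4 ± 1.79, Becn1, the core of the lipid kinase complex, at 10.4 ± 1.35, and the kinase gene Ulk1 at 4.02 ± 0.766. In the conjugation system Atg12, the ubiquitin-like partner of ATG5, led at 24.9 ± 3.5, and among the membrane suppliers Atg9a, a lipid scramblase, led at 14.4 ± 0.954. The mitophagy receptors Bnip3 and Bnip3l were at 17.6 ± 3.77 and 14.3 ± 1.34, and Pink1, the kinase that marks damaged mitochondria, was at 11.03 ± 1.46.

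The 18 members outside the fit of 4 groups had at most 20 counts in any library. A floor of 3 counts corresponded to 0.578 to 4.62 CPM depending on the library, and such floors cover counting error only. They include the cathepsins of immune and placental cells (Ctsg, Ctse, Ctsw, Ctsj, Ctsm, Ctsq and Ctsr), Atp6v0d2, the osteoclast form of subunit d, with 7 counts in total, and Atg9b with 103.

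Promoter sequences are shown because TFEB and TFE3 bind the palindrome CACGTG. RefSeq promoter windows of build GRCm38.p6, from 250 bases before to 50 after the start, matched 64 of the 79 members. CACGTG, which reads the same on both strands, occurred in 14 of those 64 (21.9%) and in 2187 of all 27025 promoters (8.09%). The longer TCACGTGA, which contains it, occurred in 6 members (9.38%) and in 304 promoters (1.12%). These are matches of letters, not measured binding sites. The Lamp1 promoter held 4 CACGTG matches in the 70 bases before its start. The windows below belong to members described in this text, with the motif in capitals and the gene's strand read 5′ to 3′.
Lamp1, chr8:13159091-13159160, plus strand: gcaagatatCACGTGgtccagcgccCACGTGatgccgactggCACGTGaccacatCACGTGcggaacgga
Atg3, chr16:45158746-45158775, plus strand: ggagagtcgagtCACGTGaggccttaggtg
Atp6v1a, chr16:44139373-44139402, minus strand: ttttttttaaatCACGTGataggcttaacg
Ctsd, chr7:142387908-142387937, minus strand: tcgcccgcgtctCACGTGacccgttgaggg
Ctsf, chr19:4855074-4855103, plus strand: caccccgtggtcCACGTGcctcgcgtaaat
Ctsl, chr13:64370739-64370768, minus strand: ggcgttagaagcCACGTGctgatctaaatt

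The first comparison asked how the RNA of these genes differed between control cones of the strains. Of 61 members tested, 10 (16.4%) passed an adjusted p of 0.05 in edgeR's quasi-likelihood test, 5 higher and 5 lower in C57BL/6J. Over all 14751 genes tested the share called was 17.5%, with 8.03% higher and 9.52% lower, so the members' share was near that of genes in general. The median log2 difference of the members was -0.08, against 0.00 for all genes. The calls lay in the proton pump, the cathepsins, the lysosomal membrane, initiation and cargo selection. None of the 5 ATG8 family genes and none of the 11 conjugation genes was called in this fit, though Gabarapl1 and Atg4c were called under some other settings given with their values.

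Atp6v0c (17:24163866-24169702, minus strand) had the largest rise. Its level was 96.2 CPM in the lowest, 109 in the median and 121 in the highest of the 6 BALB/c controls, and 260, 203 and 278.9 CPM in C57BL/6J controls 1 to 3. The groups did not overlap, and the fitted difference was 2.26-fold (log2 1.18, SE 0.14, adjusted p = 3.85e-06). In Txnip libraries it was 106, 113 and 130 CPM against 315, 184 and 236 (log2 1.08, adjusted p = 1.08e-05). An unnamed gene on the same strand shares 927 bases, 27.4% of the Atp6v0c exons, and reads there were counted for both genes. That gene had 7708 counts over the 18 libraries against 8451 for Atp6v0c, so up to that many Atp6v0c counts may be shared. It was higher by a log2 difference of 1.11 in the same comparison, so the source of those reads is uncertain. The other V0 members tested were not called.

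Pink1 (4:138313409-138326307, minus strand) was at 23.5, 29.6 and 33.5 CPM (lowest, median and highest) in BALB/c controls and at 61.2, 48.0 and 74.03 CPM in C57BL/6J controls. Every C57BL/6J control was above every BALB/c control, a 2.08-fold difference (log2 1.05, SE 0.22, adjusted p = 0.00148). The difference between Txnip libraries was log2 1.27 (adjusted p = 0.000241). The mitophagy receptors Bnip3, Bnip3l and Fundc1 were not called.

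Both cysteine cathepsins with high levels rose. Ctsb (14:63122462-63145923, plus strand) was at 679, 777 and 863 CPM in BALB/c controls and at 1134, 1100 and 1263 CPM in C57BL/6J controls, higher without overlap (log2 0.59, SE 0.14, adjusted p = 0.00544). Ctsf was at 221, 242 and 269 CPM against 313, 298 and 375 CPM, 1.35-fold higher (log2 0.43, SE 0.13, adjusted p = 0.0289). Both were also called between Txnip libraries, at log2 0.63 (adjusted p = 0.00286) and 0.52 (adjusted p = 0.00951). Microglia and pigment epithelium hold much cathepsin B, and their lists were measured beside it. The microglial list summed to 10.8 to 23.5 CPM in BALB/c and 19.5 to 30.5 CPM in C57BL/6J controls. Of its 12 genes 2 were tested, and Csf1r was called higher in C57BL/6J controls. Trem2 was at 0 in both control groups. Cx3cr1 was at 0 in every C57BL/6J control but not in every BALB/c control. The pigment epithelium list summed to 37.4 to 56.0 and 30.6 to 52.1 CPM, with Rpe65 at 0 in both C57BL/6J groups. Their part in the result was not tested. The control call for Ctsf was lost without C57BL/6J control 3 (log2 0.33, adjusted p = 0.189), and without C57BL/6J control 1 or BALB/c control 1, 2, 3 or 6 (adjusted p from 0.0514 to 0.0597). Its Txnip call was lost without C57BL/6J Txnip 1 (log2 0.30, adjusted p = 0.130).

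Ulk1 was at 20.3, 24.3 and 33.4 CPM in BALB/c controls and at 57.3, 29.7 and 41.0 CPM in C57BL/6J controls. C57BL/6J control 2 lay inside the BALB/c range, and the difference was 1.63-fold (log2 0.71, SE 0.21, adjusted p = 0.0225). Between Txnip libraries it was not called (log2 0.55, adjusted p = 0.0734), and without C57BL/6J control 1 the control call was lost (log2 0.43, adjusted p = 0.224). It was also lost without C57BL/6J control 3 (adjusted p = 0.0589) or BALB/c control 4 (adjusted p = 0.0555). With the rod marker share as a covariate Ulk1 was at log2 0.51 (adjusted p = 0.0568).

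Of the 5 lower members, Atp6v1g2 (17:35233660-35238767, plus strand) had the largest fall. It was at 66.8, 91.2 and 121 CPM in BALB/c controls and at 38.5, 19.3 and 27.2 CPM in C57BL/6J controls, 3.14-fold lower with no overlap (log2 -1.65, SE 0.27, adjusted p = 0.000158). Between Txnip libraries the log2 difference was -1.51 (adjusted p = 0.000311). The neuronal amacrine markers fell in the same comparison: Tfap2b, Gad2, Gad1 and Pax6 were called lower in C57BL/6J controls, out of 6 tested, and their part in the result was not tested. Atp6v1g1 was not called, at 80.3 to 116 CPM in BALB/c controls and 90.8, 71.6 and 110 CPM in C57BL/6J controls, which overlapped.

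Lamp2 and Cd63 were both lower in C57BL/6J. Lamp2 (X:38401357-38456454, minus strand) was at 99.7, 120 and 161 CPM in BALB/c controls and at 50.1, 68.4 and 64.0 CPM in C57BL/6J controls, 2.04-fold lower with no overlap (log2 -1.03, SE 0.17, adjusted p = 0.000162). Between Txnip libraries the log2 difference was -0.79 (adjusted p = 0.00187). Cd63 (10:128900989-128912822, plus strand) was at 28.7, 38.4 and 41.9 CPM against 28.1, 6.80 and 23.6 CPM, so C57BL/6J control 2 stood far below the other libraries. The difference was 1.87-fold (log2 -0.90, SE 0.29, adjusted p = 0.0352). Without C57BL/6J control 2 it was log2 -0.52 (adjusted p = 0.128), and the call was also lost without C57BL/6J control 3 or BALB/c control 2 or 5 (adjusted p from 0.0531 to 0.0574). Between Txnip libraries, Cd63 was at 26.5, 39.4 and 46.5 CPM in BALB/c and 16.01, 15.4 and 11.1 CPM in C57BL/6J, 2.70-fold lower with no overlap (log2 -1.43, SE 0.30, adjusted p = 0.0018). Lamp1 was called in neither comparison. Its mean log2 CPM differed by -0.529 between controls and 0.974 between Txnip libraries (exact permutation p = 0.262 and 0.0714, unadjusted). With all genes of at least 1 count tested, Lamp1 was called lower between controls and higher between Txnip libraries. Without BALB/c Txnip 1 it was called higher between Txnip libraries.

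Sqstm1 (11:50199366-50210827, minus strand) was at 247, 312 and 429 CPM in BALB/c controls and at 185, 183 and 220 CPM in C57BL/6J controls, 1.68-fold lower without overlap (log2 -0.75, SE 0.16, adjusted p = 0.00232). In Txnip libraries it was at 387, 427 and 464 CPM against 198, 174 and 192 CPM, 2.28-fold lower (log2 -1.19, SE 0.17, adjusted p = 1.94e-05). Atp6v1a, whose promoter E-box is printed above, was at 478, 514 and 564 CPM against 326, 419 and 442 CPM, 1.296-fold lower (log2 -0.37, SE 0.13, adjusted p = 0.0465). Its control call was lost without C57BL/6J control 1 (log2 -0.27, adjusted p = 0.217), C57BL/6J Txnip 3, BALB/c controls 2 to 5 or BALB/c Txnip 5 (adjusted p from 0.0534 to 0.0607 for these 6). It was also lost with the rod marker share as a covariate (log2 -0.33, adjusted p = 0.0719). Between Txnip libraries Atp6v1a was at log2 -0.41 (adjusted p = 0.0305), and not called without C57BL/6J Txnip 2 (log2 -0.28, adjusted p = 0.124) or Txnip 3 (adjusted p = 0.0632).

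**Figure D3:**
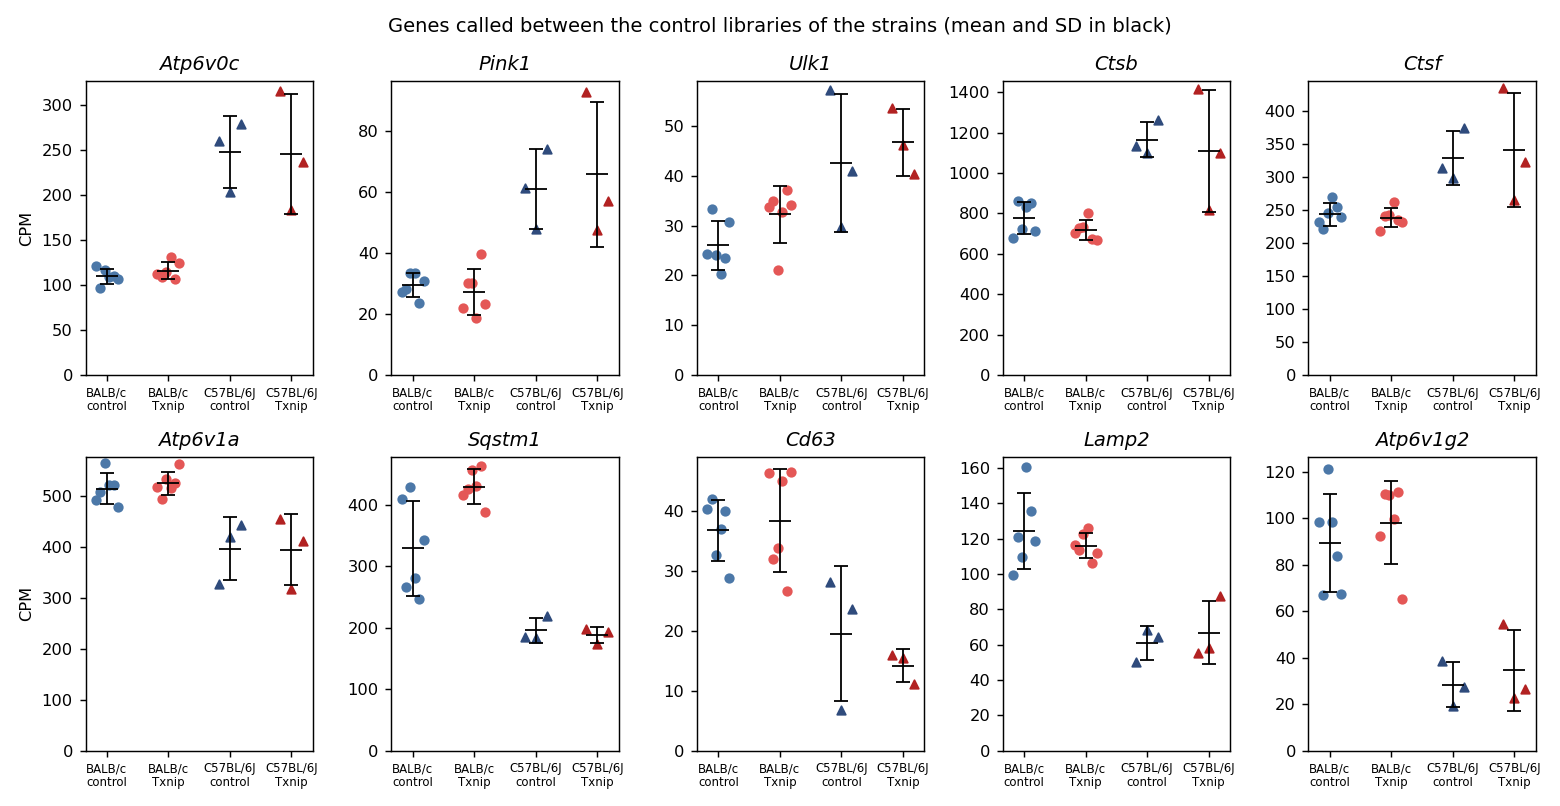
CPM of the 10 members called between control libraries of the strains, by group, with 1 point per library and the mean ± SD in black. Atp6v0c, Pink1 and Ctsb are higher in all 3 C57BL/6J controls than in the 6 BALB/c controls, and Atp6v1g2, Lamp2 and Sqstm1 are lower.

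The same difference was also taken between the Txnip libraries, in the same fit of 4 groups, so both contrasts share their filter, scaling and spread and are not independent tests. There 13 of 61 members (21.3%) were called, 6 higher and 7 lower, against 17.6% of all genes, 8.24% higher and 9.38% lower. The median log2 difference was -0.09 for the members and 0.05 for all genes. Of the 10 control calls, 9 were called again in the same direction (90%), and these made up 69.2% of the 13. Ulk1 was the exception. The same overlap was not counted over all genes, so these shares cannot be read as particular to the members. Called only in the Txnip libraries were Ctsl at log2 -0.75 (adjusted p = 0.0268, control log2 -0.61 with adjusted p = 0.0702) and 3 genes outside the naming rule, named after their values were seen. These were Atg2b, a lipid transfer protein, at log2 0.80 (adjusted p = 0.00278), Atg4c, a protease that processes ATG8, at log2 0.54 (adjusted p = 0.0135), and Atg14, a subunit of the Beclin 1 complex, at log2 -0.63 (adjusted p = 0.0391). The interaction, which tests whether the strain difference itself changed with Txnip, called none of those 4. The Ctsl call was lost without C57BL/6J Txnip 2 (adjusted p = 0.0875) or Txnip 3 (adjusted p = 0.0949), and the Atg4c call without C57BL/6J Txnip 3 (adjusted p = 0.118). The Atg14 call was lost without C57BL/6J Txnip 2 (log2 -0.41, adjusted p = 0.169), C57BL/6J Txnip 3 or any of BALB/c Txnip 2 to 5 (adjusted p from 0.0502 to 0.0671). Without C57BL/6J control 1, Ctsl was also called between controls (log2 -1.12, adjusted p = 0.000694). With the rod marker share as a covariate, Ctsl (log2 -0.91, adjusted p = 0.00135) and Atg4c (log2 0.46, adjusted p = 0.0295) were called between controls.

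Some members with high levels overlapped between the strains. Ctsd was at 593 to 770 CPM in BALB/c controls and at 655, 711 and 784 CPM in C57BL/6J controls, and Atp6v1b2 at 911 to 1113 against 952, 908 and 1288 CPM. Neither was called. Gabarapl1, at log2 -0.38 (adjusted p = 0.0574), Tfe3, at log2 -0.42 (adjusted p = 0.0898), and Atp6v0a1, at log2 -0.46 (adjusted p = 0.103), missed the threshold. Without C57BL/6J control 2, Atp6v0a1 was called (log2 -0.79, adjusted p = 0.00764), and Gabarapl1 was called lower in 5 of 13 other settings, DESeq2 among them (log2 -0.39, adjusted p = 0.00905). It was also called in 7 of 18 fits that left out 1 library, with log2 -0.55 (adjusted p = 0.018) without C57BL/6J control 3.

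Other genes of the same pathways were counted in the same way. Of 46 further lysosomal genes tested, 6 were higher and 3 lower in C57BL/6J controls (19.6%, against 17.5% of all genes). Those higher were the sorting receptor Sort1, the enzymes Smpd1 and Hexa, the membrane proteins Laptm4a and Laptm4b, and the cholesterol transporter Npc1. Those lower were Galns, Sgsh, which degrades heparan sulfate, at log2 -2.68 (adjusted p = 2.22e-07), and Tcirg1. Tcirg1 was at 83.7 to 185 CPM in BALB/c controls and at 25.2, 34.4 and 39.6 CPM in C57BL/6J controls, with no overlap (log2 -2.11, SE 0.22, adjusted p = 3.16e-07). Of 44 further autophagy genes, 4 were higher (Fnip2, Rraga, Wdfy3 and Rptor) and 2 lower (Rb1cc1 and Tbk1) (13.6%). Between Txnip libraries the counts were 6 higher and 5 lower for the lysosomal list (23.9%), and 2 higher and 1 lower for the autophagy list (6.82%), against 17.6% of all genes.

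The study's main comparison asked what Txnip did to the cones of each strain. In BALB/c, none of 59 members tested passed the adjusted p of 0.05, and 2 of 12017 genes did (0.0166%), both higher, with 0.0% lower. At an unadjusted p under 0.05 there were 7 members and 1372 genes (11.4%). The median log2 change was 0.00 for the members and 0.00 for all genes. The 7 were Lamp1, Atg3, Atp6v0a2 and Map1lc3a with lower values and Atg2a, Sqstm1 and Gabarapl2 with higher values. Atg3, Atp6v0a2, Atg2a and Gabarapl2 lie outside the naming rule and are named after their values were seen.

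Lamp1 (8:13159161-13175338, plus strand), an abundant lysosomal membrane glycoprotein, had the lowest p among the members. Its levels in BALB/c controls 1 to 6 were 94.6, 185, 133, 253, 257 and 95.4 CPM, and in Txnip libraries 1 to 6 they were 122, 84.3, 41.7, 37.9, 48.7 and 48.0 CPM. Txnip libraries 2 to 6 lay below every control, and Txnip 1 lay inside the control range. The fitted difference was 2.54-fold (log2 -1.35, SE 0.29, adjusted p = 0.106 in edgeR). DESeq2 called it (log2 -1.40, SE 0.38, adjusted p = 0.0384, with 0.892% of genes called). An exact two-sided permutation test of its mean log2 CPM gave p = 0.00866, unadjusted and for a gene singled out for its values, where the smallest possible value is 0.00216. Lamp1 shares 249 exonic bases with Grtp1 on the opposite strand, and the counting ignored strand. Grtp1 was at log2 -0.58 (adjusted p = 0.106).

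The 3 controls with the most Lamp1 were controls 2, 4 and 5, the ones with the least ribosomal RNA. With the ribosomal share as a covariate the Lamp1 difference was log2 -0.74 (adjusted p = 0.815), and without those 3 controls it was log2 -0.68 (adjusted p = 0.976). Without Txnip 1 it was log2 -1.68 (adjusted p = 0.00415, with 2.13% of genes called), and without control 1 it was log2 -1.47 (adjusted p = 0.0498, with 0.188% called). The part of the ribosomal share in the result was not tested beyond these values.

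Map1lc3a, the LC3A gene, was at 50.3, 60.0 and 91.7 CPM (lowest, median and highest) in controls and at 16.7, 23.5 and 73.5 CPM in Txnip libraries (log2 -0.75, SE 0.28, adjusted p = 0.298). Atg3, the enzyme that attaches ATG8 proteins to lipid, was at 27.2, 40.7 and 78.8 against 13.3, 17.6 and 45.0 CPM (log2 -1.02, SE 0.30, adjusted p = 0.187). Atp6v0a2, a Golgi form of subunit a, was at 42.9, 48.7 and 65.2 against 21.7, 30.7 and 58.7 CPM (log2 -0.54, SE 0.20, adjusted p = 0.281). In all 3 genes, Txnip libraries 3 to 6 were below every control and Txnip 1 was inside the control range. Without Txnip 1, Map1lc3a, Atg3 and Atp6v0a2 had log2 values of -1.12, -1.39 and -0.82 (adjusted p = 0.0232, 0.0134 and 0.0106). With the ribosomal share as a covariate they were -0.94, -0.47 and -0.35, with adjusted p from 0.782 to 0.911.

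On the higher side, Sqstm1 was at 247, 312 and 429 CPM in controls and at 387, 427 and 464 CPM in Txnip libraries. The groups overlapped, with controls 1 and 3 among the Txnip libraries (log2 0.38, SE 0.12, adjusted p = 0.207), and the value was log2 0.18 with the ribosomal share as a covariate. Atg2a, a lipid transfer protein, was at 18.8, 28.9 and 36.2 against 31.1, 41.2 and 63.5 CPM (log2 0.58, SE 0.18, adjusted p = 0.205), which overlapped. The fitted values of the 9 V1 genes lay between log2 -0.07 and 0.16. Those of the 7 cathepsins tested lay between -0.51, for the cysteine protease gene Ctso (SE 0.27, adjusted p = 0.468), and 0.02. Beside these values, the 7 amacrine markers summed to 264 to 363 CPM in BALB/c controls and 371 to 518 CPM in Txnip libraries, without overlap, though none of the 5 tested was called. The microglial list summed to 10.8 to 23.5 and 7.08 to 21.7 CPM. Their part in the Txnip values was not tested.

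**Figure D4:**
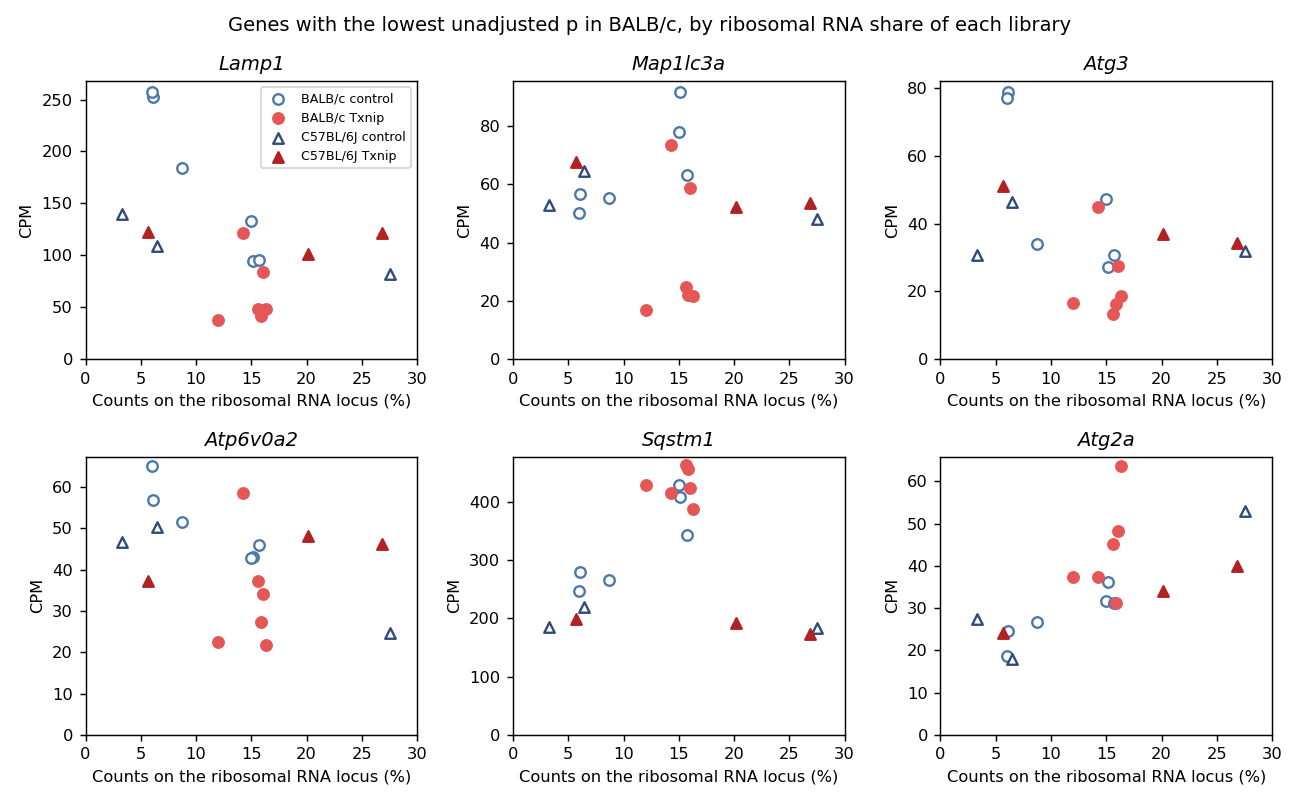
CPM of Lamp1, Map1lc3a, Atg3, Atp6v0a2, Sqstm1 and Atg2a against the share of counts (%) on the ribosomal RNA locus, with 1 point for each of the 18 libraries colored by group. BALB/c controls 2, 4 and 5, with shares below 10%, hold the 3 highest Lamp1 values, at 185, 253 and 257 CPM.

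In C57BL/6J, none of 61 members was called, and 2 of 12974 genes were (0.0154%). No member had an unadjusted p under 0.05, which 97 genes (0.748%) had. The median log2 change was -0.03 for the members and 0.01 for all genes. The fitted changes ran from log2 -0.68 for Ctso (SE 0.33) to 0.64 for Atg2b (SE 0.29). Lamp1 was at 140, 82.3 and 109 CPM in controls and at 123, 121 and 101 CPM in Txnip libraries, and Map1lc3a at 53.0, 48.0 and 64.6 against 67.5, 53.6 and 52.4 CPM, so both overlapped. Sqstm1 overlapped too, at 185, 183 and 220 against 198, 174 and 192 CPM. The biological coefficient of variation was 34.3% in this fit and 18.02% in that of BALB/c.

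**Figure D5:**
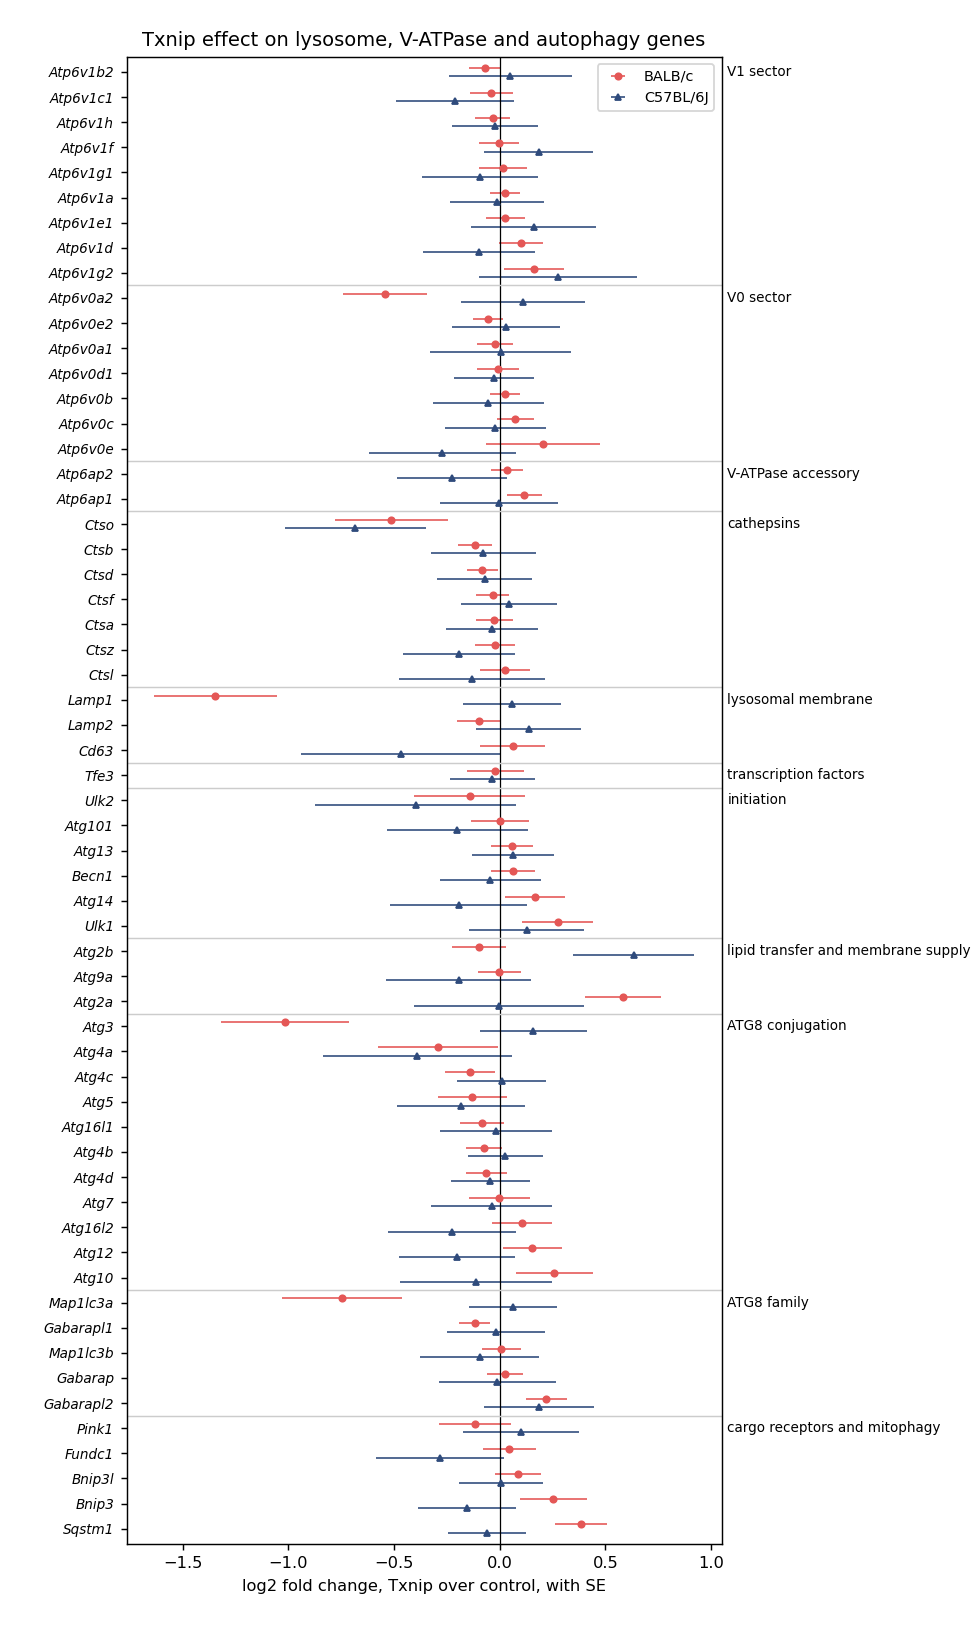
Fitted log2 fold change of Txnip over control in BALB/c and in C57BL/6J, with SE bars, for members tested in both strains, grouped by role. Most members lie near 0 in both, and Lamp1, at log2 -1.35, and Atg3, at -1.02, are the lowest in BALB/c.

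The test of whether the Txnip effect differed between strains called no member and none of 14751 genes (0.0%, also in each direction), with 706 genes (4.79%) at an unadjusted p under 0.05. Among the members 3 were under that level: Lamp1 (log2 1.42, SE 0.48, adjusted p = 0.906), Atg2b (log2 0.73, SE 0.25, adjusted p = 0.906) and Atg3 (log2 1.20, SE 0.50, adjusted p = 0.944). With every gene of at least 1 count tested, Lamp1 (adjusted p = 4.98e-05) and Atg3 (adjusted p = 0.0393) were called, with 0.425% of 43750 genes. No other setting, and no fit that left out 1 library, called a member.

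The wider pathways gave the same count of calls under Txnip, which was 0 in both strains. In BALB/c, 7 of 45 further lysosomal genes (3 higher, 4 lower) and 10 of 42 autophagy genes (4 higher, 6 lower) had an unadjusted p under 0.05, beside 11.4% of all genes. The median log2 change was 0.06 for the lysosomal list and -0.02 for the autophagy list. With lower values, they include Mcoln1, a lysosomal calcium channel, at log2 -0.79 (adjusted p = 0.106), Tmem192, a lysosomal membrane protein, at log2 -1.08 (adjusted p = 0.112), and Rb1cc1, the scaffold of the ULK1 complex, at log2 -0.94 (adjusted p = 0.110). With higher values, they include Galc, which degrades galactolipids, at log2 0.61 (adjusted p = 0.322), Fnip2 at log2 0.60 (adjusted p = 0.330) and Wdfy3, an adaptor for protein aggregates, at log2 0.44 (adjusted p = 0.330). In C57BL/6J the lysosomal list had 0 genes and the autophagy list 1 gene under that level.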

How the data were processed

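RNA was sequenced from sorted cones in 18 libraries by a modified Smart-Seq2 protocol. The authors mapped reads with STAR to GRCm38.p6 and counted read pairs per gene with featureCounts, per the submitters' processing notes. The deposited values were whole-number counts per gene, without strand, and a read in several genes was counted for each. The authors' tables of DESeq2 fold changes and p-values were not used.

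Groups came from the sample titles. Counts were fitted with edgeR 4.0.16 in R 4.3.3 (TMM, filterByExpr, quasi-likelihood test, Benjamini-Hochberg over all genes tested, threshold 0.05). Txnip effects were fitted within each strain. Strain differences and the interaction came from 1 fit of 4 groups. CPM used TMM-scaled totals, and log2 CPM a prior count of 2. DESeq2 1.42.0 was an alternative. No library pair agreed within sampling noise. Symbols and exons came from the reference annotation.

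Named genes were members called under Txnip or in the interaction, the 12 largest strain rises and falls among called members of at least median level, the highest per kilobase in each role, and a fixed list. The members and all lists were chosen with earlier results of these data known. Settings for the ribosomal RNA share were added after the data were seen. Totals of 647712 to 5172156 pairs limit low genes most.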

Additional observations from a re-analysis of the deposited data

Results flagged for a closer look

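In 57 groups of 6 BALB/c libraries, the highest and the lowest library were compared with the others by Dixon's test, which chance passes in about 1 of 20 groups, and 3 passed. Atp6v0a1 was at 281 CPM in BALB/c Txnip 3, against 343 to 385 CPM in the other 5 libraries. Atp6v1g2 was at 65.1 CPM in BALB/c Txnip 6, against 92.5 to 111 CPM in the others. Ulk1 was at 21.1 CPM in BALB/c Txnip 3, against 32.8 to 37.2 CPM in the others. Each was the lowest library of its group.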

How the results depend on the processing

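Direction held throughout: no result changed sign while called. Between control libraries of the strains, Atp6v0c, Ctsb, Pink1, Atp6v1g2, Lamp2 and Sqstm1 were called in all 13 other settings and all 18 fits that left out 1 library. The count of members higher in C57BL/6J controls (5) was 3 with a replicate block and 3 to 6 with 1 library left out. The count lower (5) was 8 with DESeq2, 3 with the block, 3 with only the 9 control libraries in the fit, 8 with the ribosomal share as a covariate (Cd63 at log2 -1.14, adjusted p = 0.00183), 3 without BALB/c libraries of low ribosomal share, and 3 to 7 with 1 library left out. Cd63 was at log2 -0.49 (adjusted p = 0.120) without the C57BL/6J libraries of high ribosomal share. Between Txnip libraries the count lower (7) was 11 with DESeq2, 4 with the block and 4 to 13 with 1 library left out, and the count higher (6) was 5 to 9. The share of all genes called in these other strain fits is not given here. These counts show only how the members' calls moved, not a difference from genes in general. In BALB/c, members lower under Txnip (0) numbered 1 with DESeq2, which called 0.892% of all genes. They numbered 0 to 4 with 1 library left out, and 4 without BALB/c Txnip 1, where 2.13% of all genes were called. With all genes of at least 1 count tested, 5 were lower and 2 higher, and the interaction called 2. The share of all genes is not given for BALB/c in that setting, so those 5 and 2 cannot be set against genes in general. The causes were not tested. Same-numbered libraries shared only a number (correlation -0.108 to 0.0993), and the block changed no count for the Txnip effect within a strain. Leaving out C57BL/6J libraries could not be done in the BALB/c fit, nor the reverse. With the high-share libraries out, 1 C57BL/6J Txnip library remained, assumed to vary like the other groups. The filter on low counts left 18 members untested.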

Other observations

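Fold changes of several members may rest partly on reads that overlapping genes share, though reads in the shared bases were not counted apart. Exonic bases were shared with another gene by 28 members, and 24 of these were tested. Becn1 shares 43.9% of its exonic bases with Cntd1, Ctsd 34.4% with Gm49369 and Atg9a 31.8% with Gm29253. Gabarapl1 shares 28.3% with 1700101I11Rik, which was lower in C57BL/6J controls at log2 -0.47 (adjusted p = 0.042 in edgeR). Sqstm1 shares 17.3% with Mrnip, which had 609 counts over the 18 libraries and was at log2 -0.50 (adjusted p = 0.248).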
